A study of Mus musculus with 30 samples.

Results

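The genes described here are 9 regulators of blood clotting and clot removal: F3, F5, F10, Tfpi, Thbd, Procr, Plat, Plau and Plaur. They were chosen by symbol, and each had 1 entry among the 19470 entries of the lung table and 1 among the 18845 entries of the spleen table. The study sequenced messenger RNA of lung and spleen from C57BL/6 mice aged 8 weeks, in 30 libraries. The groups were mice labelled lincRNA-Cox2 knockout, mice labelled lincRNA-Cox2 mutant and wild type mice, each given lipopolysaccharide (LPS, the endotoxin of Gram-negative bacteria) or PBS, the buffer control. LPS was injected into the peritoneum at 20 mg/kg and tissues were taken 6 h later. Each of the 12 groups of tissue, genotype and treatment had 3 libraries with LPS or 2 with PBS. The labels do not say how either line was made, whether libraries came from separate mice, or which lung and spleen came from 1 mouse. The long noncoding RNA lincRNA-Cox2 is transcribed beside Ptgs2, the gene of cyclooxygenase 2, and setting its lines side by side asks which genes depend on it in animals challenged with LPS.

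Clotting begins when tissue factor, the product of F3, binds factor VII on a cell surface and activates factor X (F10). Activated factor X together with factor V (F5) turns prothrombin into thrombin, which makes fibrin. Tissue factor pathway inhibitor (Tfpi) blocks the first complex, while thrombomodulin (Thbd) and the endothelial protein C receptor (Procr) let thrombin activate protein C, which destroys activated factor V. Fibrin is removed by plasmin, made from plasminogen by tissue-type plasminogen activator (Plat) or by urokinase (Plau) held on its receptor (Plaur). In sepsis and after endotoxin, tissue factor is induced on monocytes and other cells and thrombomodulin is lost from endothelium, and the lung is a site of fibrin deposition.

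Levels are given as group means in normalized counts, made by the authors, and carry no spread between libraries, and a difference between LPS and PBS is a ratio of means with no test. Library totals estimated from the smallest steps between low means were 5.20 to 17.3 M reads in lung and 2.38 to 8.95 M in the 5 of 6 spleen groups that could be resolved. The listed RNA lincRNA-Cox2 had means of 0, 0 and 30.2 normalized counts in knockout, mutant and wild type lungs with LPS, and 0, 0 and 34.8 with PBS. Ptgs2 had 208, 1058 and 1397 normalized counts in the same LPS lungs. In spleens lincRNA-Cox2 had means of 0.322, 0 and 3.53 normalized counts with LPS, and 0, 0 and 2.13 with PBS. It was thus low in wild type spleens too. Defining genes of each tissue were present: Sftpc, the surfactant protein of type II alveolar cells, had 27000 to 41800 normalized counts in lung groups, and Cd79a, a component of the B cell receptor, 685 to 3470 in spleen groups. The sexes of the groups differed. Xist, expressed from the inactive X chromosome of females, had 23.2, 4510 and 14.5 normalized counts in knockout, mutant and wild type lungs with LPS, against 1910, 3300 and 3660 with PBS. The Y-linked gene Ddx3y had 1130, 4.73 and 1150 normalized counts in the LPS lungs, against 447, 317 and 294 in the PBS lungs. Spleens showed the same order, with Xist at 33.7, 4670 and 31.3 normalized counts with LPS. Ddx3y was thus near 0 in the mutant LPS groups and Xist low in the knockout and wild type LPS groups, so genotype and sex cannot be told apart where the mutant is compared under LPS. LPS and PBS groups of each genotype also differed in these genes, and the part of sex in the LPS ratios was not tested.

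In lung, LPS went with higher RNA of the procoagulant members F3, F5 and F10, of Procr, Plat and Plaur, and with much lower Thbd. All 3 LPS means lay above all 3 PBS means for 6 of the 9 genes, F3, F5, F10, Procr, Plat and Plaur, where 35.4% of all lung entries showed that order (entries whose highest mean reached 10). All 3 LPS means lay below for Thbd and Tfpi, an order found in 36.4% of entries, and the means of Plau overlapped. In the knockout, LPS levels were at least 2-fold higher for 6 genes and at least 2-fold lower for 1, where 16.9% and 17.7% of entries were. The counts were 7 and 1 in the mutant (15.5% and 16% of entries) and 6 and 1 in wild type (13.9% and 14.3%). The median log2 LPS ratio of the 9 genes was 1.82 in knockout, 2.18 in mutant and 1.87 in wild type lungs, while the median over all entries was -0.01, -0.03 and -0.03. Every log2 LPS ratio is on the scale of log2 of the mean plus 1. In bulk tissue, fewer cells of a type and less RNA per cell cannot be told apart.

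**Figure D1:**
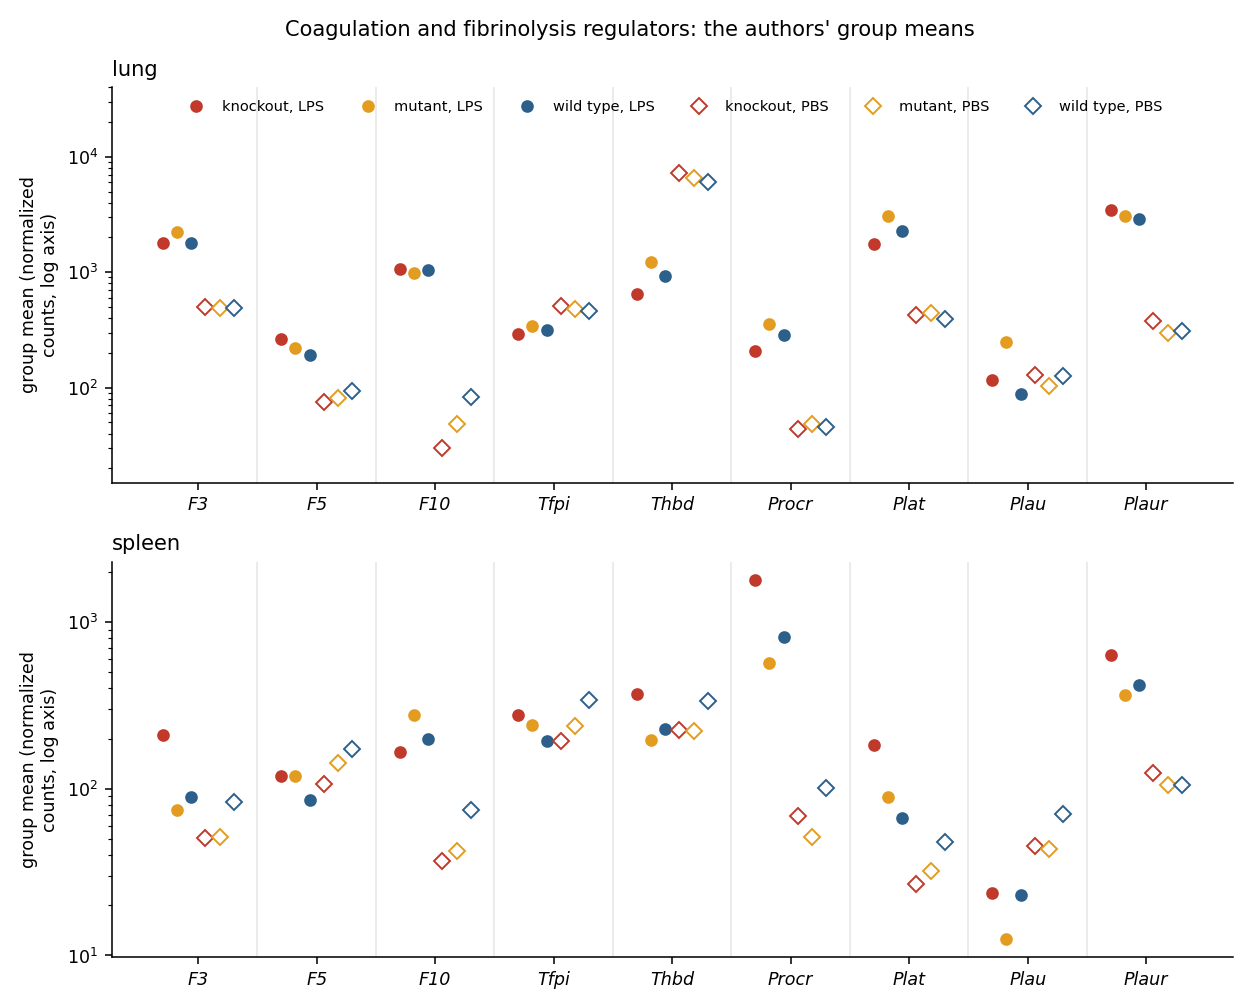
Group means of the 9 genes in normalized counts on a log axis, for lung (top) and spleen (bottom). Filled circles are LPS means and open diamonds PBS means, coloured by genotype in the order knockout, mutant, wild type, and the means carry no spread. In lung the Thbd circles, at 641 to 1230, sit below all Thbd diamonds, at 6050 to 7210, while the F10 circles, at 974 to 1070, sit above all F10 diamonds, at 29.9 to 83.2.

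Of the 9 genes, 6 had a RefSeq promoter sequence in the reference (F3, F5, F10, Tfpi, Procr and Plaur), in 7 windows since Tfpi had 2 starts. The 250 bases before each start were searched on both strands for the AP-1 motif TGANTCA and the kappa-B motif GGGRNNYYCC. The Sp1 motif GGGCGG and the CRE motif TGACGTCA were also sought. In these letters N is any base, R is A or G, and Y is C or T. The AP-1 and kappa-B motifs were sought because LPS activates AP-1 and NF-kappa-B factors. Windows of F3, Procr and Plaur held AP-1 matches, and these are the sequences shown, from RefSeq on GRCm38.p6, 5′ to 3′ on the gene's strand, with the AP-1 matches in capitals.
F3, chr3:121723287-121723536, plus strand: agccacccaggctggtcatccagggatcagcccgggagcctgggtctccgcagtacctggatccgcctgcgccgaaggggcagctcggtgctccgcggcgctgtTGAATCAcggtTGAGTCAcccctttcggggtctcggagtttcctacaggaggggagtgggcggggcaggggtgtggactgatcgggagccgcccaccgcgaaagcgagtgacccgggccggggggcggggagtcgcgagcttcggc
Procr, chr2:155750967-155751216, plus strand: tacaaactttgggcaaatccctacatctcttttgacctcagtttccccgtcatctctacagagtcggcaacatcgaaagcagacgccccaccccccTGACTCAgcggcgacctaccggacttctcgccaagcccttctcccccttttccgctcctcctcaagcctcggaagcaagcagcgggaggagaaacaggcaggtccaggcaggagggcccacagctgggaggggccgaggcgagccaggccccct
Plaur, chr7:24462233-24462482, plus strand: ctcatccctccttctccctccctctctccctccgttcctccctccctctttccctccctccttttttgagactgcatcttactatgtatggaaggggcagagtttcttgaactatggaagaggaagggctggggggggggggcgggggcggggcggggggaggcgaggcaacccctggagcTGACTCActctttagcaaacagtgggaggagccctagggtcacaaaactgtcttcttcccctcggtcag
F3 had AP-1 matches starting 146 and 135 bases before its start. Procr had 1 AP-1 match at 154 bases and Plaur 1 at 69 bases. These distances are from the RefSeq starts. The Procr window runs to 155751216, past the GENCODE start of the gene at 155751117, so its last bases lie inside that gene. For the F5 and Plaur starts, the bases just after the start were not found in a transcript. Among 32851 promoter windows of the same length, 6.75% held the AP-1 motif. GGGCGG stood 3 times each in the F3 and Plaur windows and 1 time in the F5 and in each Tfpi window, against 32.7% of all windows with at least 1. The kappa-B letters GGGRNNYYCC (7.25% of windows) and TGACGTCA (1.55%) were in none of the 7 windows. The F10 window held no motif of those searched. Only exact matches were counted, so kappa-B-like sites that depart from these letters were not sought, in F3 or in any other window. These matches are descriptions of the letters.

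F3 lies on chromosome 3 (GRCm38, 121723537 to 121735048, plus strand). Its mean in lung was 1780, 2230 and 1800 normalized counts in knockout, mutant and wild type mice with LPS, against 504, 493 and 491 with PBS. The groups did not overlap, and LPS lungs had 3.53, 4.52 and 3.67 times the PBS level. The counting error of these log2 ratios, which covers the sampling of reads alone, was 0.043 to 0.050.

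F10, on chromosome 8 (13037308 to 13056676, plus strand), had the largest LPS ratio of the 9 genes in lung. Its mean was 1070, 974 and 1050 normalized counts in knockout, mutant and wild type mice with LPS, against 29.9, 48.2 and 83.2 with PBS. The LPS means lay within 1.10-fold of each other, while the PBS means spread over 2.78-fold. LPS lungs therefore had 35.8, 20.2 and 12.6 times the PBS level, with the largest ratio where the PBS mean was lowest. The wild type log2 ratio, 3.64 ± 0.11 (counting SE), stood at percentile 98.5 of all lung entries. Irf7, an interferon-induced factor, had 270, 242 and 842 normalized counts in the same PBS lungs and so was also highest in wild type; the part of this in the F10 ratio was not tested.

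F5, on chromosome 1 (164151838 to 164220277, plus strand), lies 14.0 Mb from lincRNA-Cox2 on that chromosome. Its mean in lung was 262, 222 and 191 normalized counts in knockout, mutant and wild type mice with LPS, against 74.3, 81.9 and 93.9 with PBS. Platelet and megakaryocyte markers, whose cells carry factor V, summed to 2718, 1912 and 2145 normalized counts with LPS, against 490, 580 and 409 with PBS, and 8 of 8 were at least 2-fold higher in each genotype. Their part in the F5 level was not tested. The genotypes stood in opposite orders of F5 under the 2 treatments, so that the log2 LPS ratio was 1.80 in the knockout, 1.43 in the mutant and 1.02 in wild type. F5 overlaps Gm16548 on the other strand and Gm16588 on its own strand, and no source used here says that counting used the strand, so the reads of these genes cannot be told apart.

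Thbd (chromosome 2, 148404466 to 148408188, minus strand) was the furthest below its PBS level of the 9 genes in lung. Its mean in lung was 641, 1230 and 927 normalized counts in knockout, mutant and wild type mice with LPS, against 7210, 6610 and 6050 with PBS. PBS lungs had 11.2, 5.37 and 6.53 times the LPS level, and the wild type log2 ratio of -2.70 ± 0.030 (counting SE) stood at percentile 1.46 of all entries. Endothelial markers were lower too, to unequal degrees. Of 12 markers 7, 7 and 6 were at least 2-fold lower with LPS in knockout, mutant and wild type lungs, and 2, 1 and 1 at least 2-fold higher. The median log2 LPS ratio of the markers was -1.64, -1.25 and -0.93. Their summed level, to which Cdh5 gave a large part, was 30714, 36202 and 34787 normalized counts with LPS. With PBS it was 42788, 40598 and 38089. Tek, the angiopoietin receptor, had 140, 322 and 316 against 4610, 4400 and 3270, while Cdh5, the junction protein VE-cadherin, had 12900, 14700 and 14700 against 9510, 8530 and 7600. The part of endothelial cell number in the Thbd level was not tested.

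Procr, on the same chromosome (155751117 to 155755471, plus strand), encodes the partner receptor of the thrombomodulin pathway and went the other way. Its mean in lung was 209, 355 and 287 normalized counts in knockout, mutant and wild type mice with LPS, against 43.6, 48.8 and 45.7 with PBS. The 3 PBS means lay within 1.12-fold, and LPS lungs had 4.79, 7.27 and 6.28 times as much. Tfpi (chromosome 2, 84432855 to 84476775, minus strand) had 294, 340 and 317 normalized counts with LPS, against 513, 478 and 465 with PBS. Its log2 LPS ratio of -0.80, -0.49 and -0.55 was a smaller difference than that of Thbd and did not reach 2-fold in any genotype.

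Plat (chromosome 8, 22757727 to 22782844, plus strand), the activator that endothelium releases, had 1757, 3085 and 2252 normalized counts in knockout, mutant and wild type lungs with LPS, against 425, 441 and 390 with PBS. LPS lungs had 4.13, 6.99 and 5.77 times the PBS level, lowest in the knockout and highest in the mutant. Plaur (chromosome 7, 24462484 to 24475968, plus strand) had 3440, 3060 and 2890 normalized counts with LPS, against 381, 298 and 307 with PBS. Its ratio was nearly the same in the genotypes, 9.03, 10.3 and 9.41 times the PBS level. Plau (chromosome 14, 20836660 to 20843385, plus strand), which encodes the enzyme that Plaur holds, had 117, 247 and 88.4 normalized counts with LPS, against 129, 103 and 126 with PBS. The mutant LPS mean of Plau stood above the other 5 means, which ran from 88.4 to 129. Lung neutrophil markers, cells that carry Plaur, summed to 20654, 20183 and 19125 normalized counts with LPS (7 of 8 listed markers found), against 2442, 3017 and 2625 with PBS. Their part in the Plaur level was not tested.

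**Figure D2:**
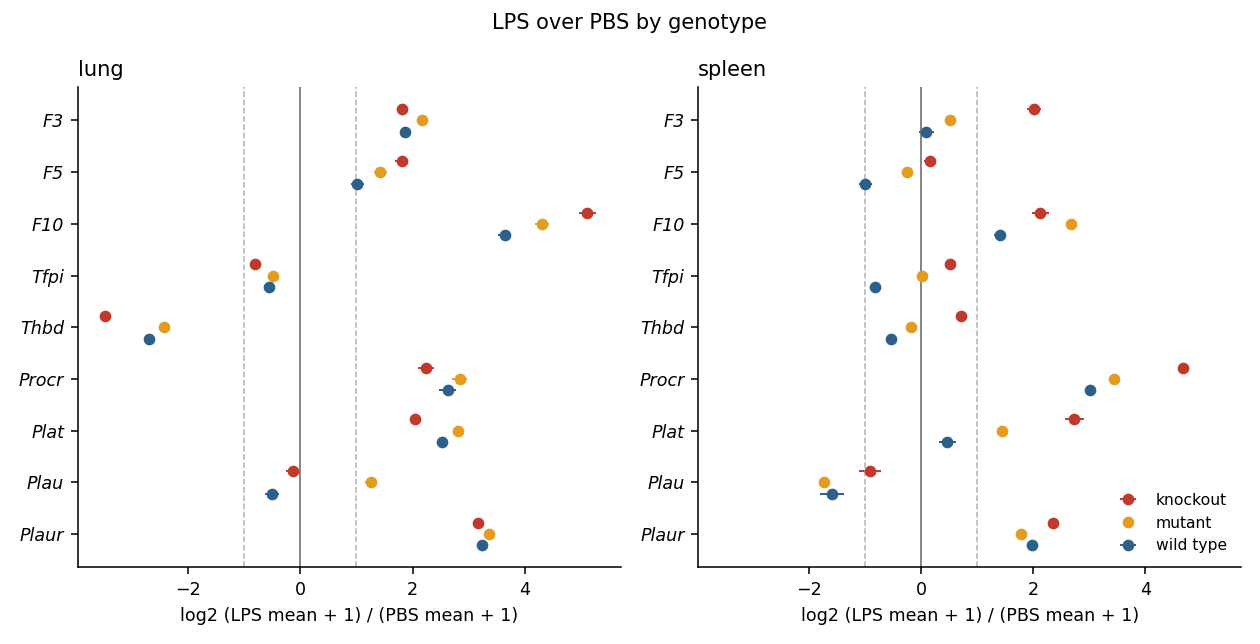
Log2 ratio of the LPS mean to the PBS mean, each plus 1, for the 9 genes in lung (left) and spleen (right), with knockout above mutant above wild type for each gene. Bars are counting errors (SE) alone, absent for spleen mutant, and dashed lines mark 2-fold. In spleen the knockout points of F3 (2.02) and Plat (2.73) stand apart from the wild type points (0.10 and 0.47), whereas in lung the genotypes lie close together for F3 and Plaur.

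In spleen, all 3 LPS means lay above all 3 PBS means for 4 genes, F10, Procr, Plat and Plaur (30.3% of spleen entries), and below for Plau (31.4%), while the means of F3, F5, Tfpi and Thbd overlapped. In the knockout, LPS levels were at least 2-fold higher for 5 genes and at least 2-fold lower for 0, against 16.6% and 18.7% of all entries. The counts were 4 and 1 in the mutant (15.3% and 16.7%) and 3 and 1 in wild type (13.5% and 14.8%). The median log2 LPS ratio of the 9 genes was 2.02 in knockout, 0.51 in mutant and 0.10 in wild type spleens, where the median over all entries was -0.02, 0.00 and 0.02.

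Procr was the member furthest above its PBS level in spleen. Its mean was 1790, 569 and 818 normalized counts in knockout, mutant and wild type spleens with LPS, against 69.0, 51.2 and 101 with PBS. LPS spleens had 25.9, 11.1 and 8.14 times the PBS level, and the knockout ratio stood at percentile 99.4 of all entries. Plaur had 637, 366 and 420 normalized counts with LPS, against 124, 105 and 106 with PBS, a ratio of 5.14, 3.49 and 3.96 times. F10 had 165, 276 and 200 normalized counts with LPS, against 36.9, 42.3 and 74.5 with PBS. As in lung, the PBS mean of F10 was highest in wild type, where Irf7 was also highest with PBS at 1205 normalized counts, against 274 in the knockout and 343 in the mutant.

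F3, which was higher with LPS in every lung genotype, had 209, 74.2 and 88.8 normalized counts in knockout, mutant and wild type spleens with LPS, against 50.7, 51.7 and 82.9 with PBS. The knockout LPS mean stood above the other 5 means, which ran from 50.7 to 88.8. Plat had 184, 89.1 and 67.2 normalized counts with LPS, against 26.8, 32.1 and 48.2 with PBS, so that the genotype order with LPS was the reverse of that with PBS. Thbd, the gene with the deepest difference in lung, had 370, 195 and 229 normalized counts with LPS, against 225, 221 and 334 with PBS, and its LPS ratio was above 0 in the knockout (0.72) and below 0 in mutant (-0.18) and wild type (-0.54).

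Tfpi in spleen had 278, 240 and 194 normalized counts with LPS, against 193, 237 and 342 with PBS, and F5 had 120, 119 and 86.1 against 107, 142 and 172. In both the wild type mean was the lowest with LPS and the highest with PBS. Plau was the only member with all LPS means below all PBS means, at 23.8, 12.5 and 22.9 normalized counts in knockout, mutant and wild type spleens with LPS and 45.4, 43.7 and 70.9 with PBS.

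The log2 LPS ratio was higher in the knockout than in wild type for all 9 genes in spleen, by 0.38 (Plaur) to 2.26 (Plat), where 48.9% of all entries had a difference above 0. For 6 genes the difference was at least 1 (9.06% of entries): Plat 2.26, F3 1.92, Procr 1.67, Tfpi 1.34, Thbd 1.26 and F5 1.15. Against the mean of the 3 PBS groups in place of each genotype's own PBS mean, 3 genes (F3, Procr and Plat) differed by at least 1, an alternative added after seeing the data. The wild type PBS mean was the highest of the 3 PBS means for 8 of the 9 genes, all but Plaur. The shares of all entries for this count and for the count of 3 genes were not computed. The wild type PBS sum was also the highest for hepatocyte, endothelial, monocyte, neutrophil, platelet, alveolar and fibroblast markers. It was not the highest for B cell, T cell and erythroid markers. In lung the difference between knockout and wild type was above 0 for 3 of 9 genes (48.4% of entries), and at least 1 for F10 (1.47; 4.29% of entries). The mutant lung ratio exceeded the wild type ratio for all 9 genes (52.7% of entries), by 0.06 (Tfpi) to 1.76 (Plau), and by at least 1 for Plau alone (2.86%). In spleen the mutant exceeded wild type for 7 of 9 genes (48.7%), and by at least 1 for F10 (1.26; 6.79%). These differences were not tested, since the files used give no spread for an LPS ratio.

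The spleen libraries also differed in their mix of cell markers. Hepatocyte markers (7 of 8 found) summed to 3327, 2554 and 231 normalized counts in knockout, mutant and wild type spleens with LPS, against 153, 17.4 and 1356 with PBS; among them Apoh was at 0 in mutant PBS spleens. Fibroblast and smooth muscle markers (8 of 8) summed to 6389, 5172 and 4424 with LPS, against 5693, 5932 and 8836 with PBS. Of them 1, 0 and 0 were at least 2-fold higher with LPS in knockout, mutant and wild type spleens, and 2, 0 and 5 at least 2-fold lower. Dcn gave a large part of the knockout LPS sum, at 2000 normalized counts against 535 with PBS. Endothelial markers (12 of 12) summed to 2139 to 2558 in the 6 spleen groups, with single markers going both ways: 2, 2 and 0 were at least 2-fold higher with LPS in knockout, mutant and wild type spleens, and 3, 2 and 3 at least 2-fold lower. Cdh5 had 751, 617 and 566 normalized counts with LPS, against 228, 270 and 366 with PBS, and Kdr, a growth factor receptor, 55.9, 88.5 and 80.4 against 212, 234 and 293. B cell markers (6 of 6) summed to 4047, 4454 and 7233 with LPS, against 11192, 10647 and 8369 with PBS. The part of these mixes in the member values was not tested.

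Levels can be set between genes per kilobase of the longest coding transcript in GENCODE. In wild type lungs with LPS, Plaur led at 1919 normalized counts per kilobase, followed by F3 at 962 and Plat at 892, and F5 was lowest at 25.7. With PBS, Thbd led at 1625 per kilobase, ahead of F3 at 262 and Plaur at 204, and F5 was lowest at 12.6. Thbd led in all 3 PBS lung groups and Plaur in all 3 LPS lung groups. In wild type spleens with LPS, Procr led at 512 per kilobase and Plaur followed at 279, an order found in all 3 genotypes, while Plau was lowest at 9.78. With PBS the leading levels in wild type spleens were close, with Thbd at 89.7, Tfpi at 86.2, Plaur at 70.4 and Procr at 63.0 per kilobase, and Plaur led in knockout and mutant. With no spread between libraries, it was not tested whether neighbours in these orders differ.

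Genotypes were compared with each other within tissue and treatment by the authors, and a call here means that the authors' deposited table gives an adjusted p under 0.05. The 9 genes gave 108 values over 12 comparisons, 95 of them with an adjusted p, and 1 was called. Procr rose in knockout against mutant spleens under LPS, by 1.55 on the log2 scale (adjusted p 0.0233, authors' deposited table). Of all entries in that comparison 0.177% were called in either direction and 0.0421%, 5 of 11871, were called higher. The knockout mean of 1790 normalized counts and the mutant mean of 569 stood on either side of the wild type mean of 818. Against wild type, the authors' deposited table gives Procr a log2 fold of 1.06 (adjusted p 0.455) in the knockout and -0.50 (adjusted p 1) in the mutant. The sex-linked genes divide the 2 groups of the called comparison: Xist had 33.7 normalized counts in knockout and 4670 in mutant spleens with LPS, and Ddx3y 601 and 14. The spleen neutrophil markers summed to 2246 and 8573 normalized counts in these groups. S100a8 (502 and 2350) and S100a9 (1140 and 4980) gave a large part of these sums. Mmp8, Mmp9 and Retnlg were also higher in the mutant, while Cxcr2 had 96.0 and 130 and Csf3r 318 and 319. Genotype and sex cannot be told apart for this call.

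**Figure D3:**
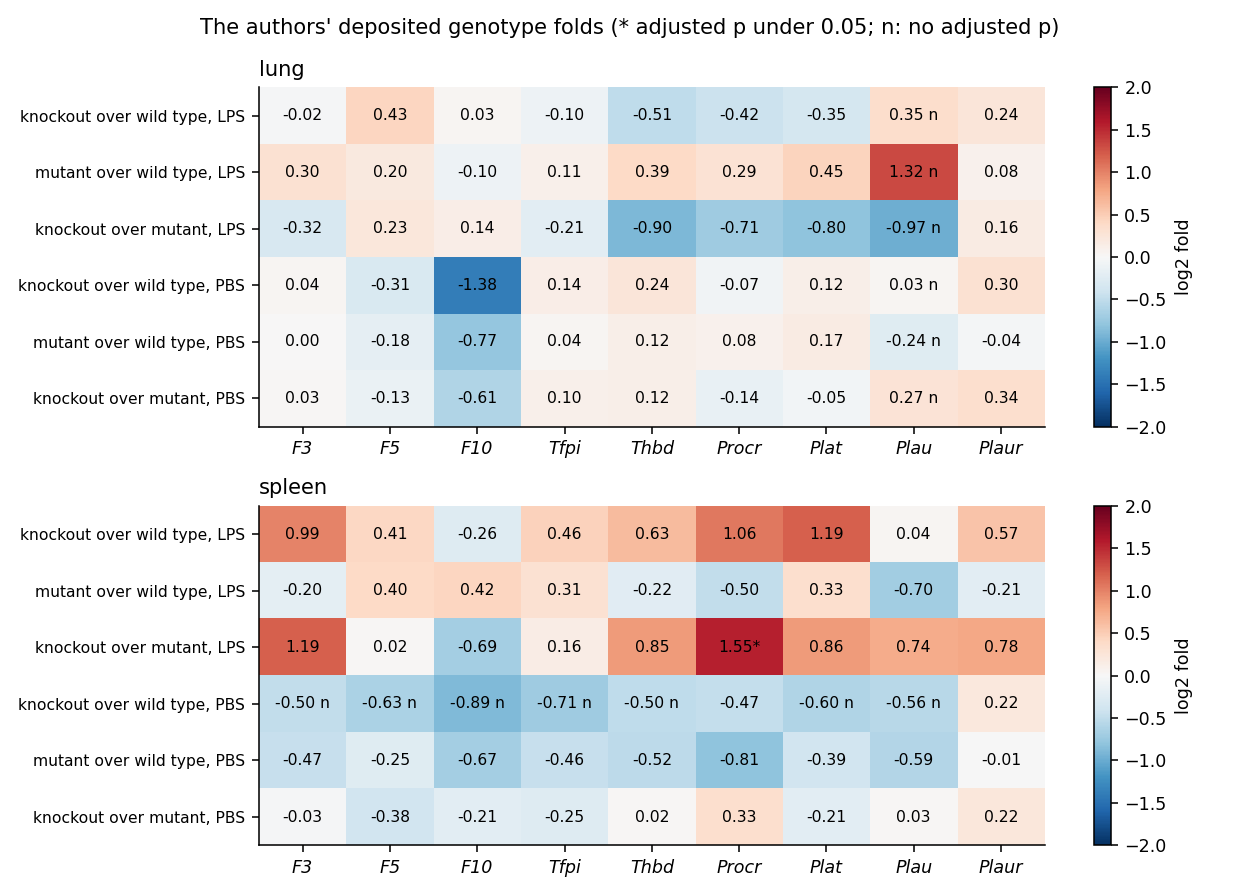
Log2 folds of the 9 genes in 6 genotype comparisons per tissue, from the authors' deposited table, with the first-named genotype over the second. Colour runs from blue (lower) to red (higher), the asterisk marks an adjusted p under 0.05 and the letter n a fold with no adjusted p. Procr in knockout over mutant spleens with LPS, at 1.55, is the only called value.

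In lung 0 members were called in any comparison of the authors' DESeq2 analysis, and unadjusted p-values were not used here. The shares of all lung entries called were 0.441% for knockout over wild type, 0.0715% for mutant over wild type and 0.243% for knockout over mutant with LPS, and 0.0421%, 0.00524% and 0.0523% for the same pairs with PBS. The lowest adjusted p among members in lung in the authors' deposited table was that of Plat in knockout over mutant with LPS, 0.0736 (log2 fold -0.80), which lies within the authors' own limit of 0.1 (0.512% of entries). Thbd in the same comparison had a log2 fold of -0.90 (adjusted p 0.204, authors' deposited table). F10 in knockout over wild type lungs with PBS had the largest fold of any member that had an adjusted p in lung, -1.38 (adjusted p 0.187), and -0.77 (adjusted p 1) in mutant over wild type, both from the authors' deposited table. With LPS the F10 folds were 0.03 and -0.10 for the same pairs in the authors' deposited table. F5, the member on the chromosome of lincRNA-Cox2, had log2 folds of 0.43 (adjusted p 0.804) with LPS and -0.31 (adjusted p 1) with PBS in knockout over wild type lungs in the authors' deposited table.

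Plau had no adjusted p in any of the 6 lung comparisons, so its folds could not be called either way. Its log2 fold in mutant over wild type lungs with LPS was 1.32 in the authors' deposited table. Among 9224 lung entries with an overall mean at or above that of Plau, 138 normalized counts, 6 entries (0.0650%) had no adjusted p in any comparison. The 3 libraries behind the mutant mean were not used here, and how far they differ was not tested.

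In spleen the other member values were not called. The shares of all entries called were 0.0241% for knockout over wild type and 0.00545% for mutant over wild type with LPS, and 0.16%, 0% and 0% for knockout over wild type, mutant over wild type and knockout over mutant with PBS. For the fold signs and medians that follow, all entries means the 13011 spleen entries with an overall mean of at least 10 normalized counts. The log2 folds of knockout over wild type with LPS were above 0 for 8 of 9 members in the authors' deposited table, with a median of 0.57 against -0.03 over all entries, where 47.7% were above 0. The largest were Plat at 1.19 (adjusted p 0.588), Procr at 1.06 and F3 at 0.99 (adjusted p 0.646) in the authors' deposited table. Knockout over mutant with LPS was likewise above 0 for 8 of 9, with a median of 0.78 against 0.00 over all entries (50.1% above 0), and F10 was the exception at -0.69 (adjusted p 0.535) in the authors' deposited table; both comparisons use the same knockout libraries. With PBS, 9 of 9 members were below 0 in mutant over wild type, with a median log2 fold of -0.47 (50.8% of all entries were above 0), and the authors' deposited table gives each an adjusted p of 1. In knockout over wild type with PBS, 8 of 9 were below 0, with a median of -0.56 (50.3% of all entries above 0), and the authors' deposited table leaves 7 of 9 with no adjusted p.

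The wider pathway was taken as 48 genes in 6 lists that include the 9 members, of which 47 were found in each table and Serpina5 was not. Counts cover genes whose LPS or PBS mean reached 10 in the genotype counted, so the genes counted differ between genotypes. In knockout lungs 29 of 45 listed genes were higher with LPS by at least 2-fold and 3 lower, 25 and 2 of 40 in the mutant, and 16 and 5 of 37 in wild type. In spleen the counts were 22 and 4 of 43 in the knockout, 17 and 3 of 39 in the mutant, and 5 and 14 of 38 in wild type. Much of this contrast lay in genes that hepatocytes mainly make, such as fibrinogen chains, prothrombin and plasminogen. Of these, 16 of 17, 10 of 11 and 5 of 9 were at least 2-fold higher with LPS in knockout, mutant and wild type lungs. In spleens 13 of 15, 10 of 11 and 0 of 10 were, while 8 of 10 were at least 2-fold lower in wild type spleens. Many of these genes reached 10 only with the treatment where they were higher, so the filter itself favours such counts. In knockout lungs F12 had 0.347 normalized counts with PBS and 11.1 with LPS, and in wild type spleens F2 had 24.4 with PBS and 3.80 with LPS. The liver's albumin gene Alb was higher with LPS in knockout and mutant tissues and lower with LPS in wild type lungs and spleens. It stood at 2220, 1570 and 121 normalized counts with LPS and 97.1, 8.27 and 855 with PBS in spleens, and at 2460, 462 and 242 against 110, 9.08 and 370 in lungs. Whether liver RNA was carried into these libraries was not tested.

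The listed genes marked here as made mainly by hepatocytes were then left out. Of the rest, 13 of 28, 15 of 29 and 11 of 28 were at least 2-fold higher in knockout, mutant and wild type lungs. In spleens 9, 7 and 5 of 28 were higher, and 4, 3 and 6 lower. This count was added after seeing the data, and all 9 members are among the genes kept. F5, F7 and F10, which hepatocytes make, were not marked, so the genes kept are not free of liver products. In mutant PBS lungs, where Alb had 9.08 normalized counts, F5 had 81.9 and F10 48.2. In mutant PBS spleens, where Alb had 8.27, F5 had 142 and F10 42.3. In knockout LPS lungs, where Alb had 2460, F5 had 262 and F10 1070. In knockout LPS spleens, where Alb had 2220, F5 had 120 and F10 165. The part of liver RNA in the F5 and F10 levels was not tested.

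**Figure D4:**
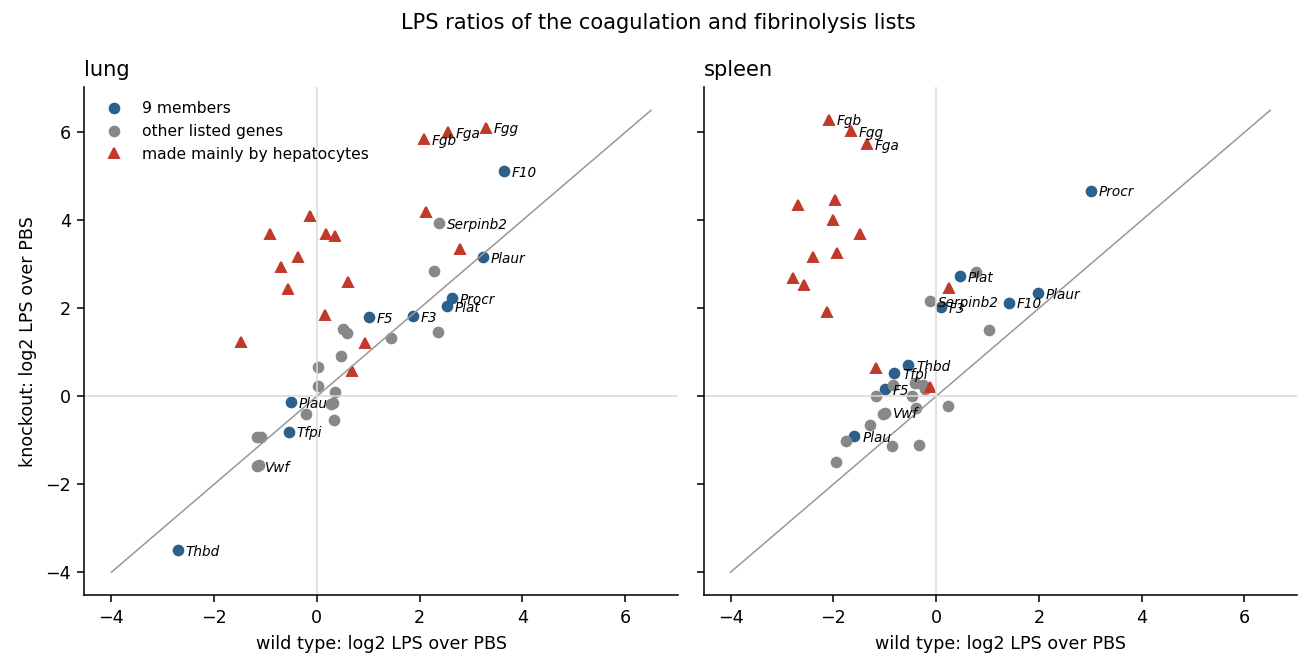
Log2 LPS ratio in the knockout (vertical axis) against wild type (horizontal axis) for the listed genes measured in lung (left) and spleen (right), with the diagonal marking equal ratios and 1 listed gene not drawn. Blue circles are the 9 members, grey circles other listed genes and red triangles genes made mainly by hepatocytes. In spleen most of the triangles lie high on the vertical axis and left of 0 on the horizontal one, with Fgb at 6.29 in the knockout and -2.08 in wild type, while Procr lies at 4.68 and 3.01.

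The counts by role stand beside 13.5 to 16.9% of all entries higher and 14.3 to 18.7% lower at the same limit. In lists this small several lie near those shares. The measured genes again differ between genotypes, and the filter again favours genes that reached 10 with 1 treatment alone. By role, 13, 9 and 7 of 16, 13 and 13 measured procoagulant factors were at least 2-fold higher with LPS in knockout, mutant and wild type lungs, and 8, 6 and 1 of 14, 12 and 12 in spleens. Of anticoagulants 7, 6 and 4 of 10, 9 and 8 were higher in lungs, and Thbd was the 1 lower in each genotype. Of plasminogen activation genes 4, 6 and 2 of 8, 8 and 7 were higher in lungs and 4, 4 and 2 of 8 in spleens. The 3 vitamin K cycle genes had 0 higher in any group. Protease-activated receptors had 0 higher in spleens, where 1, 1 and 3 of 4 were lower.

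Among the listed genes reported here, the largest wild type log2 LPS ratios in lung were those of F10 (3.64), Fgg (3.29), Plaur (3.23), Proz (2.78) and Procr (2.62). Fgg, a fibrinogen chain, had 689, 445 and 262 normalized counts in knockout, mutant and wild type lungs with LPS, against 9.00, 2.83 and 25.8 with PBS. Proz encodes protein Z, a cofactor in factor X inhibition, and had 83.5, 72.1 and 71.0 against 7.24, 4.89 and 9.47. The smallest were Thbd (-2.70), F8 (-1.17), the factor VIII gene, and Vwf (-1.16), the endothelial carrier of factor VIII, at 1790, 2670 and 2100 normalized counts with LPS and 5360, 5060 and 4700 with PBS.

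In wild type spleens the largest ratios among the listed genes reported here were Procr (3.01), Plaur (1.98), F10 (1.41), Anxa2 (1.03), which encodes a plasminogen receptor subunit, and Tfpi2 (0.77), an inhibitor related to Tfpi. The smallest were genes that hepatocytes make: Serpinc1 (-2.56), which encodes antithrombin, F2 (-2.40) and Fgb (-2.08). Their knockout ratios in spleen were 2.54, 3.16 and 6.29. No listed gene other than Procr was called in any of the 12 genotype comparisons. Cpb2, the carboxypeptidase that slows fibrinolysis, named after its value was seen, had a log2 fold of 3.04 in knockout over wild type spleens with LPS (adjusted p 0.0564, authors' deposited table), within the limit of 0.1 that 0.133% of entries met.

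For each member the entries with the most similar pattern were found by Pearson's r of log2 means, centred within each tissue, over the 12 group means and among 10177 entries. These values are descriptions, and all points share the LPS contrast, the genotype differences and the mix of cells. Plaur was most like Rabgef1 (r = 0.996) and Hmga1 (0.995), F10 most like the LPS- and interferon-induced Slfn8 (0.995) and Slfn1 (0.994), and Procr most like the chemokine gene Ccl11 and Nup88 (both 0.993). Ccl11 had 493, 218 and 286 normalized counts in knockout, mutant and wild type spleens with LPS, against 11.0, 6.68 and 21.3 with PBS, the same genotype order as Procr. Plat was most like Tmbim4 (0.989) and Gcnt2 (0.988), F3 most like Hnrnpf (0.987) and Seh1l (0.986), and Thbd most like Frmd6 (0.983) and Lxn (0.977). F5 followed Cap1 (0.955) and Tlr13 (0.954), and Tfpi followed Arhgap29 (0.953) and Maged2 (0.942). Plau had the weakest likeness, with Aco1 (0.896) and Nedd9 (0.887). Among pairs of members r was highest for F3 with Plat (0.970) and lowest for F10 with Thbd (-0.85).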

How the data were processed

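Lung and spleen RNA of 3 genotypes with LPS or PBS was analysed from 1 table per tissue. Bowtie2, STAR 2.5.3a, SAMtools, bedtools and DESeq2 with mm10 are named in the submitters' processing notes, without settings. The deposited tables hold, per the file headers, a mean per group, used here as a normalized signal, and a log2 fold change for each genotype comparison. The adjusted p-value of each comparison was read as a score that the authors deposited. The tables hold group means in place of single libraries, so the authors' comparisons were used at an adjusted p under 0.05, beside the authors' limit of 0.1. Some deposited folds lie nearer 0 than the log2 ratio of the group means.

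Lung gave 19470 usable entries (6 broken lines left out) and spleen 18845 (5 left out, with 1026 split symbols rejoined). LPS ratios were computed as log2 of the LPS mean plus 1 over the PBS mean plus 1, for entries whose LPS or PBS mean reached 10, and counted at 2-fold. Library totals came from the smallest steps between low means, which were whole within 0.5% for at least 98.4% of low values. Counting errors follow from these totals and cover the sampling of reads alone. With replicates of unstated origin, the authors' p-values measure the spread between these libraries, which may be technical.

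All 9 members are named. Of the lists, genes called in any comparison, the 6 largest and 3 smallest wild type LPS ratios per tissue, and for each member the 2 most similar entries are named. Similarity used entries with a mean of at least 50 in some group of each tissue. Of the lists, 1 gene that this rule names in both tissues is not reported here singly, and it stays in the counts. The members and lists were chosen with earlier results of these data known. Alternatives were the pseudocount, the mean minimum, the fold and p limits, and recentring on the median. Others were ratios of means and counts without the genes marked as made mainly by hepatocytes. Positions are from GENCODE M21 and promoters from RefSeq (GRCm38.p6). The scripts ran on Python 3.11.15, numpy 2.4.6, pandas 2.3.3 and matplotlib 3.10.9, and were tested on simulated data.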

Additional observations from a re-analysis of the deposited data

Results flagged for a closer look

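Procr in spleen under LPS differed between the knockout and the mutant line: the log2 fold of knockout over mutant was 1.55 in the authors' deposited table, with an adjusted p of 0.0233. This comparison tests the difference between the effects of the lines against wild type, which were 1.06 in the knockout and -0.50 in the mutant in the authors' deposited table. The groups also differ in sex-linked genes, and the part of sex was not tested.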

How the results depend on the processing

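No single LPS ratio of a member changed sign with the 2 other pseudocounts or after recentring. All 54 LPS ratios stayed within their counting interval (in mutant spleen, one made from the least precise resolved spleen or lung group) with a pseudocount of 0.1 and after recentring, and 52 of 54 with a pseudocount of 10, which left 5 members at least 2-fold higher in wild type lung in place of 6 (F5 at 0.95). All 108 genotype folds kept their sign as ratios of group means. With a 1.5-fold limit, members lower with LPS were 2 in knockout lung, 1 in knockout spleen and 3 in wild type spleen, and listed genes lower were 6 in knockout lung and 5 in mutant spleen. Other counts changed at this limit too and are not all listed. Thbd in knockout spleen (log2 LPS ratio 0.72) then counted as higher, and Vwf in wild type spleen (-0.99) as lower. Recentring gave 2 members lower in wild type spleen. With a mean of at least 50, listed genes higher were 14 in knockout and 11 in mutant spleen, and lower 0 in mutant and 7 in wild type spleen. Lung counts fell as well and are not listed. In knockout lungs, genes such as F2 (46.7 normalized counts with LPS) and F12 (11.1) were then no longer counted as higher. An alternative added after seeing the data left out the genes marked as made mainly by hepatocytes. Listed genes higher were then 13 in knockout and 15 in mutant lung and 9 and 7 in spleen. In wild type spleen 6 were lower. Over the mean of the 3 PBS groups, also added, members with an LPS ratio at least 1 above wild type were 0 in knockout lung, 3 in knockout spleen and 0 in mutant spleen, and 4 were above 0 in mutant spleen. At an adjusted p up to 0.1, 1 member was called in knockout over mutant lung with LPS, also the 1 listed gene called there, and 1 listed gene in knockout over wild type spleen with LPS. The cause was not tested for any of these.

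No paired analysis was possible because the tables used hold group means and no single libraries, and leaving out each replicate was not run for the same reason. No member symbol was repeated, so other entries of a symbol gave no alternative. Depth limits low genes most: 3 reads over a group correspond to a mean of 0.744 to 1.53 normalized counts in the 11 groups resolved, and the spleen mutant LPS group has no counting error.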
